A study of Mus musculus with 8 samples.

Results

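The polo-like kinases are a small family of serine/threonine kinases, and all 5 mouse genes of the family, Plk1, Plk2, Plk3, Plk4 and Plk5, were found by gene symbol among the 28460 genes of the deposited table. All 5 passed the filter on low counts, which left 16059 genes for testing. The members were chosen by symbol, and the family was proposed with its CPM values and fold changes between the genotypes already in view, so the levels of its members are given as a description and without p-values. The 8 RNA-seq libraries were made from spermatogenic cells of mouse testes at postnatal day 12, on a mixed strain background: 4 biological replicates carried a conditional knockout of Brg1 (Brg1 cKO) and 4 were wild type for it (Brg1 WT). Smarca4 is the gene of BRG1, the ATPase that powers SWI/SNF complexes when they remodel chromatin. Neither the Cre driver nor the deleted exons were stated in the labels. The testes were digested with collagenase and trypsin and the cells sieved but not sorted as far as the labels say, and transcripts of somatic testis cells were counted too. In such bulk samples fewer cells of a type and less RNA per cell cannot be told apart.

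Polo-like kinases carry an amino-terminal kinase domain and a carboxy-terminal polo-box region, through which PLK1 docks on proteins that are already phosphorylated. PLK1 drives entry into mitosis, centrosome maturation, kinetochore attachment and cytokinesis, and in male meiosis it takes part in taking apart the synaptonemal complex. PLK4 starts the duplication of centrioles. PLK2 and PLK3 are products of stress-responsive and immediate early genes, and PLK2 also acts at synapses. PLK5 is the odd member: it is known from brain, where it is linked to neuron differentiation, and the human gene no longer encodes a complete kinase domain.

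Plk1, Plk4 and Plk5 were lower in every Brg1 cKO library than in any Brg1 WT library, Plk5 by far the most. Plk3 exceeded the whole Brg1 WT range in 3 of the 4 Brg1 cKO libraries, and Plk2 lay on both sides of the Brg1 WT range. The log2 fold changes, Brg1 cKO over Brg1 WT, were -2.39 for Plk5, -0.61 for Plk1, -0.38 for Plk4, 0.12 for Plk2 and 0.58 for Plk3. Their median was -0.38, beside 0.013 over all 16059 genes tested. At an adjusted p under 0.05 in edgeR's quasi-likelihood test 3 of the 5 members were called, all lower, where 11.8% of all genes tested were called lower and 20.6% in either direction. The same 3 members were lower in every Brg1 cKO library than in any Brg1 WT library, as were 15% of all genes tested, while 26% did not overlap in either direction. Nothing is read from these counts, or from the calls under other fits below, because the choice of the family used this contrast. All fits drew on the same libraries or a part of them. The calls depended on the fit for all members but Plk5, which was called in every alternative, and Plk2, which was called in none. That of Plk4 was lost in 5 of the 8 fits that left out a single library, namely those without Brg1 cKO replicate 1 or 3 or Brg1 WT replicate 1, 2 or 3. The calls of Plk1 and Plk4 were both lost once Brg1 WT replicates 1 and 2 were left out together, and with the germ cell marker median taken as no change. Plk3, not called here, was called higher with RLE factors, DESeq2, a filter of 1 CPM, the germ cell marker median as no change, and in 2 of the 8 fits without a single library, those without Brg1 cKO replicate 2 or 4.

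Library totals ran from 20456743 to 27872409 estimated counts in Brg1 cKO and from 25213109 to 32596038 in Brg1 WT. Smarca4 had 121 ± 7.55 CPM (CPM being estimated counts per 1000000 of the scaled library total) in Brg1 cKO and 347 ± 7.68 CPM in Brg1 WT (SD, n = 4 each), and no libraries overlapped. Of 12 germ cell markers 3 fell in Brg1 cKO and none rose, where 11.8% of all genes tested fell. The germ cell markers summed to 1871 to 2529 CPM in Brg1 cKO and 2501 to 3120 CPM in Brg1 WT. Of 11 Sertoli cell markers 5 rose and none fell, where 8.79% of all genes tested rose. They summed to 5035 to 7098 CPM in Brg1 cKO and 4030 to 5192 CPM in Brg1 WT. Clu alone made most of that sum, at means of 4125 CPM in Brg1 cKO and 2808 CPM in Brg1 WT. Clu was named after its values were seen. All 12 germ cell and all 11 Sertoli cell markers were above 0 in every library. Of 9 pachytene and spermatid markers, 6 were tested and 3 fell, at sums of 23.6 to 25.2 CPM in Brg1 cKO and 44.7 to 98.2 CPM in Brg1 WT, highest in Brg1 WT replicates 1 and 2. Among these later-stage markers Pgk2 and Prm1 were at 0 in some libraries.

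The promoters of the 3 members that were lower in every Brg1 cKO library are shown, each as 250 bases before and 50 bases after the RefSeq start (build GRCm38.p6), read 5′ to 3′ on the strand of the gene. Capitals mark matches, on either strand, to the CHR element TTTGAA, the CCAAT box, the E2F core GCGGGAA or GCGCGAA, and the cAMP response element core TGACG. The CHR element and E2F sites are known from promoters of cell cycle genes, and the cAMP response element from promoters of immediate early genes.
Plk1, chr7:122159185-122159484, plus strand: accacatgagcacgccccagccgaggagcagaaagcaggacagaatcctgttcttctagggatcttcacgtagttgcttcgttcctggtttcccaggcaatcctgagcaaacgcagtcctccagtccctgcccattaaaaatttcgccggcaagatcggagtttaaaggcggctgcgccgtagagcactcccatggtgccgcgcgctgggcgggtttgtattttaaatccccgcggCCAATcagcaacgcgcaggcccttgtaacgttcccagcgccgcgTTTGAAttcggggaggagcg
Plk4, chr3:40799701-40800000, plus strand: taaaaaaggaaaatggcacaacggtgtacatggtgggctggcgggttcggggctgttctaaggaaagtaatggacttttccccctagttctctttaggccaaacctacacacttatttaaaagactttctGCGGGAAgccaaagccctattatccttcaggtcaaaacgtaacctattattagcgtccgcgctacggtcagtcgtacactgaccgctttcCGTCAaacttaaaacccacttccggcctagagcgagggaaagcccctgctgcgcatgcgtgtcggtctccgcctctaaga
Plk5, chr10:80356209-80356508, plus strand: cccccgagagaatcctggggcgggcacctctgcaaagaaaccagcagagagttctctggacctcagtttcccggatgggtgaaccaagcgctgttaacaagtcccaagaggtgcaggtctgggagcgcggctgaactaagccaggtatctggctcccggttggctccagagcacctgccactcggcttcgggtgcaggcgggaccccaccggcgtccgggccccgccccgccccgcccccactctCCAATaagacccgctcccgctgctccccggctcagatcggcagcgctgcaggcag
Counted from the start as base 1, the Plk1 window held a CCAAT box at bases -14 to -10 and a TTTGAA at bases 31 to 36. The Plk4 window held the E2F core at bases -120 to -114 and a TGACG on the other strand at bases -30 to -26. That window ends at 40800000, before Plk4 begins in GENCODE M21 (40800019), so these positions hold for the RefSeq start only. The Plk5 window held a CCAAT box at bases -5 to -1 and none of the other motifs. No match in a window says only that these letters are not there.

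The windows of Plk2 (chr13:110394794-110395093, plus strand) and Plk3 (chr4:117133914-117134213, minus strand) shared the TGACG core, which the windows of Plk1 and Plk5 lacked. It stood 3 times in the Plk2 window, with 2 of the matches overlapping on opposite strands at bases -62 to -55, and 2 times in the Plk3 window, at bases -132 to -128 and -63 to -59. Among all 32851 promoter windows of the same length, 17.9% held TTTGAA, 37.4% CCAAT, 6.00% an E2F core and 20.8% TGACG. The 5 windows held 50% (Plk4) to 66.7% (Plk5) G and C, against a median of 52.7% over all windows. These matches describe the sequence and are not evidence of a bound factor.

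Levels of different genes can be compared only per length, here per kilobase of the longest coding transcript in GENCODE M21. In Brg1 cKO the order was Plk2, Plk4, Plk1, Plk3 and Plk5, with mean levels of 15.5, 14.1, 10.2, 8.26 and 0.591 CPM per kb. In Brg1 WT it was Plk4, Plk1, Plk2, Plk3 and Plk5, with 18.3, 15.6, 14.3, 5.51 and 3.12 CPM per kb. Within Brg1 WT the ranges of Plk4 and Plk1 overlapped, as did those of Plk1 and Plk2, but within each of the 4 Brg1 WT libraries Plk4 was above Plk1 and Plk1 above Plk2. Plk3, at 4.40 to 6.21 CPM per kb, and Plk5, at 2.45 to 3.68, stood apart from each other and from the rest in Brg1 WT. In Brg1 cKO each neighbouring pair overlapped except Plk3, with 5.97 to 10.1 CPM per kb, and Plk5, with 0.456 to 0.811. Plk4 was above Plk1 in all 4 Brg1 cKO libraries, whereas Plk2 was above Plk4 in 2 of the 4 and Plk1 above Plk3 in 2 of the 4. Divided by coding length in place of transcript length, Plk2 came before Plk1 in Brg1 WT, at means of 19.6 and 19.0 CPM per kb, and was above it in 3 of the 4 libraries.

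**Figure D1:**
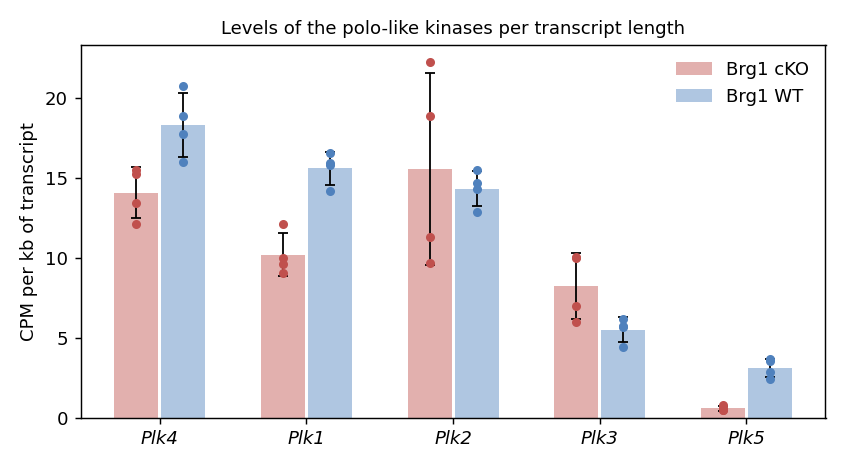
Level of each polo-like kinase in CPM per kb of transcript, Brg1 cKO left and Brg1 WT right in each pair, ordered by the Brg1 WT mean. Bars are means, error bars SD (n = 4) and points libraries. Plk5 is lowest in both genotypes, and Plk2 spreads most among the Brg1 cKO libraries.

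Plk1 encodes the mitotic kinase of the family and lies on chromosome 7 (GRCm38, 122159439 to 122169873), with 10 exons in its longest coding transcript. It had 21.1, 26.7, 19.97 and 22.0 CPM in Brg1 cKO replicates 1 to 4, against 35.1, 34.8, 36.5 and 31.1 CPM in Brg1 WT replicates 1 to 4. The highest Brg1 cKO library, replicate 2, stayed below the lowest Brg1 WT library, replicate 4. The means were 22.4 ± 2.95 CPM in Brg1 cKO and 34.4 ± 2.28 CPM in Brg1 WT (SD, n = 4 each). The log2 fold change was -0.61 ± 0.10 (SE), or 1.53-fold lower in Brg1 cKO. A provisional gene, Gm44985, lies on the opposite strand and shares up to 156 exonic bases with Plk1. The sources used here do not say whether the counting used strand.

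Plk4, the centriole kinase, lies on chromosome 3 (GRCm38, 40800019 to 40816883) and had 42.1, 53.9, 46.8 and 53.2 CPM in Brg1 cKO replicates 1 to 4. Brg1 WT replicates 1 to 4 had 72.2, 65.6, 61.8 and 55.7 CPM. The groups were separated by a narrow gap, between Brg1 cKO replicate 2 and Brg1 WT replicate 4. The means were 49.0 ± 5.60 CPM in Brg1 cKO and 63.8 ± 6.94 CPM in Brg1 WT, a log2 fold change of -0.38 ± 0.10 (SE), or 1.30-fold lower in Brg1 cKO. Taking the median of the germ cell markers (a log2 fold change of -0.36) as no change left Plk4 at -0.025 and Plk1 at -0.26. The ratio of Plk1 to Plk4, in CPM, was 0.414 to 0.501 in Brg1 cKO and 0.486 to 0.591 in Brg1 WT.

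Plk5 lies on chromosome 10 (GRCm38, 80356459 to 80365489) and was the least abundant member. It had 28, 47, 24 and 21 estimated counts in Brg1 cKO replicates 1 to 4, against 221, 156, 254 and 127 in Brg1 WT replicates 1 to 4. As CPM these were 1.28, 1.71, 0.962 and 1.04 in Brg1 cKO and 7.46, 5.98, 7.76 and 5.17 in Brg1 WT. Every Brg1 WT library lay above the highest Brg1 cKO library, replicate 2, with a wide gap between the groups. The means were 1.25 ± 0.34 CPM in Brg1 cKO and 6.59 ± 1.23 CPM in Brg1 WT, a log2 fold change of -2.39 ± 0.23 (SE), or 5.24-fold lower in Brg1 cKO. Of the 16059 genes tested, 35 had a lower log2 fold change. Plk5 took 0.782% to 1.06% of the family's summed CPM in Brg1 cKO and 3.66% to 4.86% in Brg1 WT. Of 5 neuron markers 3 were tested and none was called. The sum of all 5 overlapped between the genotypes, at 40.7 to 62.7 CPM in Brg1 cKO and 22.0 to 64.0 CPM in Brg1 WT. Map2 alone made most of that sum, at means of 42.8 CPM in Brg1 cKO and 40.7 CPM in Brg1 WT. Map2 was named after its values were seen. The log2 fold change of Plk5 was -2.04 with the germ cell median as no change and -2.81 with the Sertoli cell median as no change.

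**Figure D2:**
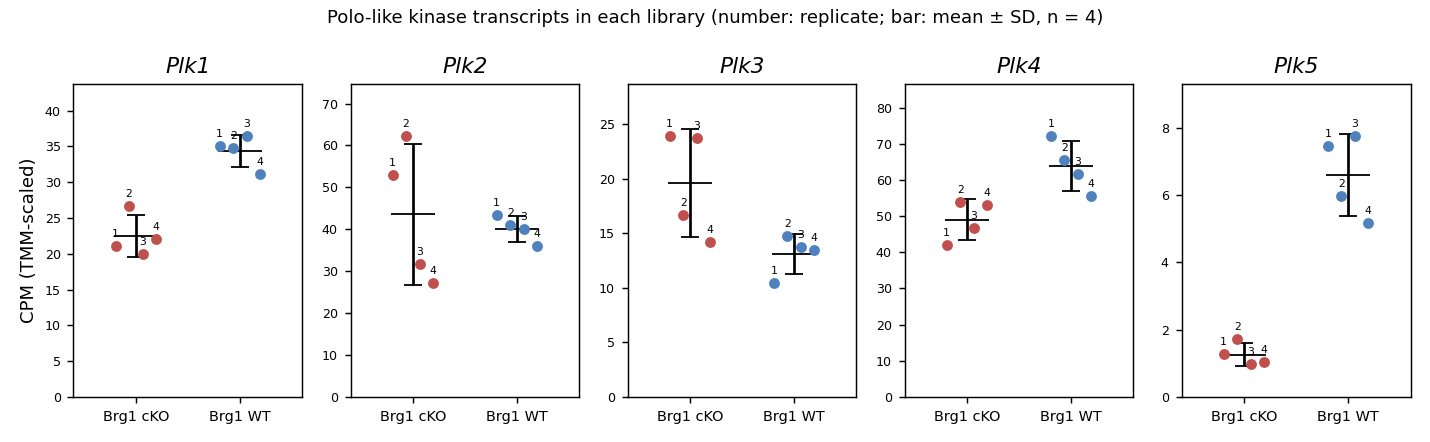
CPM of the 5 polo-like kinases in each library, Brg1 cKO left and Brg1 WT right in each panel. Points are libraries with their replicate number, and bars are the mean ± SD (n = 4). Plk1, Plk4 and Plk5 do not overlap between the genotypes, and Plk2 and Plk3 do.

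Plk2, on chromosome 13 (GRCm38, 110395046 to 110400844), is a stress-induced member. It had 53.0, 62.3, 31.7 and 27.1 CPM in Brg1 cKO replicates 1 to 4, against 43.4, 41.1, 40.0 and 36.0 CPM in Brg1 WT replicates 1 to 4. Brg1 cKO replicates 1 and 2 lay above every Brg1 WT library and replicates 3 and 4 below every one. The means were 43.5 ± 16.8 CPM in Brg1 cKO and 40.1 ± 3.09 CPM in Brg1 WT, a log2 fold change of 0.12 ± 0.25 (SE). The highest library was 2.30 times the lowest within Brg1 cKO and 1.21 times within Brg1 WT. Leaving out Brg1 cKO replicate 2 turned the difference to -0.10.

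Among the Brg1 cKO libraries the order of Plk2 was also that of the sums of 5 endothelial and of 6 Leydig cell markers. In neither list did every marker follow it singly. The peritubular and stromal markers had this order by mean log2 CPM, though not by sum. Their means were 7.54, 7.65, 7.49 and 6.63 in Brg1 cKO replicates 1 to 4. The summed level of the endothelial markers was 233, 365, 166 and 151 CPM in Brg1 cKO replicates 1 to 4. In Brg1 WT replicates 1 to 4 the same sum was 141, 228, 212 and 229 CPM. Brg1 WT replicate 1, the lowest of these in endothelial markers, was the highest Brg1 WT library in Plk2. Pecam1 alone made most of the endothelial sum, at means of 149 CPM in Brg1 cKO and 147 CPM in Brg1 WT. Against the order of Plk2, Pecam1 was lower in Brg1 cKO replicate 3 (101 CPM) than in replicate 4 (114 CPM). Pecam1 was named after its values were seen. The Leydig cell markers summed to 58.6, 70.7, 51.3 and 19.99 CPM in Brg1 cKO replicates 1 to 4, against 32.0, 41.6, 29.2 and 21.9 CPM in Brg1 WT replicates 1 to 4. The Sertoli cell markers ran the other way at one end, with their lowest Brg1 cKO sum, 5035 CPM, in replicate 2, where Plk2 was highest. All 5 endothelial and all 6 Leydig cell markers were above 0 in every library, and none of them was called between the genotypes. The part of the cell types of these marker lists in the spread of Plk2 was not tested.

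Plk3, on chromosome 4 (GRCm38, 117128655 to 117133963), is the other stress-responsive member. It had 23.9, 16.7, 23.7 and 14.2 CPM in Brg1 cKO replicates 1 to 4, against 10.5, 14.8, 13.7 and 13.5 CPM in Brg1 WT replicates 1 to 4. Brg1 cKO replicate 4 lay inside the Brg1 WT range and the other Brg1 cKO libraries above it. The means were 19.6 ± 4.94 CPM in Brg1 cKO and 13.1 ± 1.85 CPM in Brg1 WT, a log2 fold change of 0.58 ± 0.19 (SE). With the Sertoli cell median (0.42) as no change the value was 0.16. Plk3 shares up to 250 exonic bases with Tctex1d4 on the opposite strand, which had 0 to 2 estimated counts in Brg1 cKO libraries and 1 to 4 in Brg1 WT libraries.

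Within the genotypes, deviations of each library from its genotype mean, in log2 CPM, were compared among the members and with 9 marker lists, which gave 55 relations over 8 libraries. An exact two-sided permutation of the libraries within each genotype was used, with 576 orders and 0.00174 as the smallest p. These correlations were planned as a description without p-values, and the permutation was not part of that plan. None of the 55 had a Benjamini-Hochberg adjusted p under 0.05. With 55 relations, 1 relation at the smallest p could not pass that threshold alone, so nothing is concluded from the absence of adjusted calls. Unadjusted, 12 had a permutation p under 0.05 by Pearson's r and 7 by Spearman's rho. The 7 relations under 0.05 by both coefficients had adjusted p-values of 0.191 to 0.207 for r and of 0.286 to 0.327 for rho. The smallest exact permutation p was that of Plk2 with the Sertoli cell markers, which went opposite ways (r = -0.76, p = 0.0035; rho = -0.83, p = 0.010), with r = -0.70 without the 2 libraries farthest from the median of the markers. Plk2 went with the Leydig cell markers (r = 0.80, exact permutation p = 0.0087; rho = 0.76, p = 0.031), with r = 0.64 without the 2 farthest libraries. Plk1 and Plk5 deviated together (r = 0.88, exact permutation p = 0.016; rho = 0.90, p = 0.0087), with r = 0.72 without the 2 farthest. Plk1 went with the proliferation markers (r = 0.90, exact permutation p = 0.019; rho = 0.86, p = 0.019), with r = 0.59 without the 2 farthest. Plk4 and the germ cell markers had r = 0.84 (exact permutation p = 0.033) and rho = 0.86 (p = 0.028), and r = 0.89 without the 2 farthest. Plk1 and Plk5 each went opposite to the Sertoli cell markers, with r = -0.81 for Plk1 and -0.83 for Plk5 (exact permutation p = 0.042 and 0.028), rho = -0.79 and -0.83 (p = 0.042 and 0.030), and r = -0.53 and -0.61 without the 2 farthest.

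The other 5 relations under 0.05 were so by Pearson's r alone, and all had an adjusted p of 0.207 for r. They were Plk2 with Plk5, with the endothelial and with the pachytene and spermatid markers, Plk3 with the peritubular and stromal markers, and Plk5 with the proliferation markers. Plk2 and the endothelial markers had r = 0.81 (exact permutation p = 0.045) and rho = 0.71 (p = 0.174, adjusted p = 0.455). That relation rested on 2 libraries, Brg1 cKO replicates 2 and 4, without which r was 0.33. Plk3 and the peritubular and stromal markers had r = 0.76 (exact permutation p = 0.043), which was -0.17 without the 2 farthest libraries. Plk3 and the germ cell markers, under 0.05 by neither coefficient, had r = -0.86 and rho = -0.81 (exact permutation p = 0.0625 and 0.106, adjusted p = 0.246 and 0.343).

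**Figure D3:**
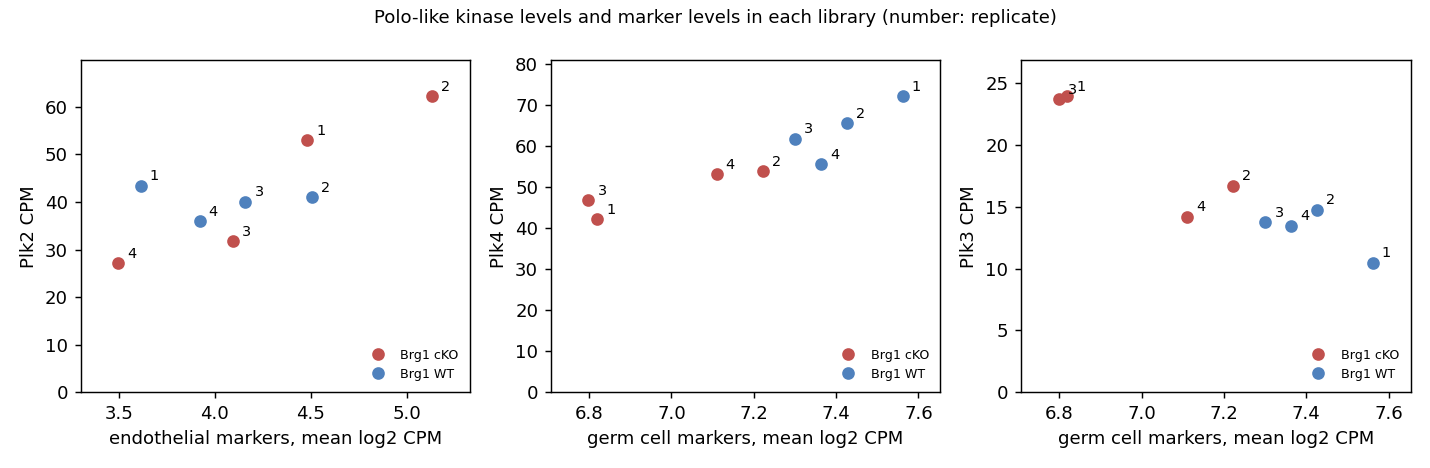
CPM of Plk2 against the mean log2 CPM of 5 endothelial markers, and of Plk4 and Plk3 against that of 12 germ cell markers. Each point is a library with its replicate number, Brg1 cKO and Brg1 WT in separate colours. Brg1 cKO replicates 2 and 4 mark the ends of the Plk2 panel.

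The genes whose pattern over the 8 libraries was most like that of each member were taken by Pearson's r of log2 CPM among 12482 genes, with the genotype difference part of the pattern. They are a description and carry no test. For Plk1 they were Prc1 (r = 0.995), B4galnt3 (0.994) and Mrpl4 (0.993). Prc1, which bundles microtubules of the central spindle, had 54.8 ± 6.14 CPM in Brg1 cKO and 82.2 ± 3.65 CPM in Brg1 WT. For Plk4 they were Scml2 (0.994), Orc1 (0.987) and Dmxl2 (0.987). Scml2, which encodes a germ line protein associated with polycomb repression, had 257 ± 24.8 CPM in Brg1 cKO and 326 ± 37.1 CPM in Brg1 WT. For Plk5 they were Cdr2 (0.995), Prpf3 (0.994) and Ebf3 (0.993). Ebf3, a transcription factor of the early B-cell factor family, had 4.50 ± 1.17 CPM in Brg1 cKO and 21.5 ± 2.70 CPM in Brg1 WT. For Plk3 they were Zc4h2 (0.984), Zxda (0.978) and Prrg3 (0.968), each higher on average in Brg1 cKO. For Plk2 they were BC005764 (0.958), Kctd15 (0.936) and the collagen gene Col5a3 (0.934), with log2 fold changes of 0.041 to 0.085.

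Many genes that work with PLK1 in mitosis fell in Brg1 cKO. Of 20 tested genes of mitotic anchors and targets of PLK1, 12 fell in Brg1 cKO, none rose and 8 were not called, where 11.8% of all genes tested fell. Their median log2 fold change was -0.39, beside 0.013 over all genes tested. Prc1 had a log2 fold change of -0.59 ± 0.082 (SE, edgeR adjusted p = 0.0032), 1.501-fold lower in Brg1 cKO. Incenp, the scaffold of the chromosomal passenger complex, had 67.4 ± 7.14 CPM in Brg1 cKO and 98.9 ± 4.47 CPM in Brg1 WT (SD, n = 4 each), and edgeR gave an adjusted p = 0.0034. Cep55, which acts in the last step of cytokinesis, was 1.39-fold lower, and Kif23, a kinesin of the central spindle, 1.30-fold lower. Nudc, the most abundant gene of the list, had 288 ± 22.1 CPM in Brg1 cKO and 285 ± 17.9 CPM in Brg1 WT and was not called. The docking sites of PLK1 at kinetochores, Bub1 and Mlf1ip (now Cenpu), were among the 12, at -0.55 and -0.59. These and the remaining called genes, Cdc20, Cdc25b, Ect2, Fbxo5, Kif2c and Ttk, lie outside the rule for naming genes and were named after their values were seen. The summed level of the list was 1124 to 1292 CPM in Brg1 cKO and 1392 to 1573 CPM in Brg1 WT. Proliferation markers, 3 of 7 of which fell and none rose, summed to 862 to 1116 CPM in Brg1 cKO and 1256 to 1448 CPM in Brg1 WT, and germ cell markers were lower too, as given above. All 7 proliferation markers were above 0 in every library, and their part in these falls was not tested. Without Brg1 WT replicates 1 and 2 the fit called 2 members, 2.66% of all genes being called. With the germ cell median as no change 1 member was lower and 4 were higher.

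The activators of PLK1 and the regulators of cell cycle transcription gave 3 lower, no higher and 13 uncalled genes of 16 tested, or 18.8% lower beside 11.8% of all genes tested, with a median of -0.27. Aurka, which phosphorylates the activation loop of PLK1, had 14.6, 20.2, 14.6 and 16.1 CPM in Brg1 cKO replicates 1 to 4, against 29.5, 29.1, 24.1 and 21.7 CPM in Brg1 WT replicates 1 to 4. The groups did not overlap, and Aurka was 1.59-fold lower in Brg1 cKO (edgeR adjusted p = 0.013). Tpx2, an activator of Aurora A, was 1.28-fold lower (adjusted p = 0.0045, edgeR), and Foxm1, a transcription factor of mitotic genes including Plk1, had 59.3 ± 9.12 CPM in Brg1 cKO and 88.8 ± 2.89 CPM in Brg1 WT (SD, n = 4 each). Bora, the cofactor with which Aurora A activates PLK1, had a log2 fold change of -0.12 ± 0.12 (SE) and was not called, and Cdk1 had -0.015 ± 0.17. Bora and Cdk1 were named after their values were seen. The most abundant gene, Ppp1r12a, part of a phosphatase that opposes PLK1, had 200.4 ± 19.4 CPM in Brg1 cKO and 187 ± 11.0 CPM in Brg1 WT and was not called. Without Brg1 WT replicates 1 and 2 no gene of the list was called by edgeR, with 4 at an unadjusted p under 0.05. DESeq2 and limma-voom each called 5, and leaving out Brg1 cKO replicate 2 gave 7. With the germ cell median as no change no gene was lower and 4 were higher.

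For PLK4, the 19 tested genes of centriole duplication gave 6 lower, none higher and 13 uncalled, 31.6% lower beside 11.8% of all genes tested. Their median log2 fold change was -0.083, beside -0.38 for Plk4 itself. Cenpj, which builds centriolar microtubules, had 31.3, 33.9, 32.2 and 30.8 CPM in Brg1 cKO replicates 1 to 4, against 45.9, 47.6, 47.6 and 44.4 CPM in Brg1 WT replicates 1 to 4. No libraries overlapped (1.45-fold lower in Brg1 cKO, edgeR adjusted p = 0.0018). Ccp110, a cap of the growing centriole, had 76.3 ± 7.72 CPM in Brg1 cKO and 125 ± 16.05 CPM in Brg1 WT (SD, n = 4 each; edgeR adjusted p = 0.0034). The direct partners Stil and Sass6, which form the cartwheel with PLK4, were 1.43-fold and 1.40-fold lower. Cep192, which recruits PLK4 to the centriole, and Tubg1 were also called, at -0.30 and -0.32. The other recruiter, Cep152, had -0.18 ± 0.090 (SE) and was not called. Cep192, Tubg1 and Cep152 were named after their values were seen. Pcnt, the most abundant gene, had 126 ± 12.7 CPM in Brg1 cKO and 118 ± 4.09 CPM in Brg1 WT and was not called. The fit called 2 genes when Brg1 cKO replicate 1 or 3 or Brg1 WT replicate 1 or 2 was left out, and also 2 without Brg1 WT replicates 1 and 2 together. With the germ cell median as no change 2 genes were lower and 10 higher.

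Meiotic targets of PLK1 and their partners gave 5 lower, no higher and 6 uncalled genes of 11 tested, or 45.5% lower beside 11.8% of all genes tested, with a median of -0.47. Sycp1, the transverse filament of the synaptonemal complex and the most abundant of the list, had 239.8, 214, 229.7 and 242 CPM in Brg1 cKO replicates 1 to 4, against 388, 351, 249.98 and 299.5 CPM in Brg1 WT replicates 1 to 4. The groups did not overlap, and Brg1 WT replicates 1 and 2 were highest (1.39-fold lower in Brg1 cKO, edgeR adjusted p = 0.025). Sgol2 (now Sgo2a), which protects centromeric cohesin, and the meiotic cohesin gene Rec8 were each 1.53-fold lower. Aurkc, the germ line Aurora kinase, had 0.431 ± 0.11 CPM in Brg1 cKO and 1.37 ± 0.38 CPM in Brg1 WT, and Fbxo43, an inhibitor of the anaphase-promoting complex, 1.71 ± 0.17 CPM in Brg1 cKO and 3.26 ± 0.91 CPM in Brg1 WT (SD, n = 4 each). Aurkc was near the floor, at 0.32 to 0.55 CPM in the Brg1 cKO libraries. With the filter of 1 CPM Aurkc was not tested, which left 10 genes of the list. The pachytene and spermatid markers given above were highest in the same Brg1 WT replicates 1 and 2, and their part was not tested. Without those libraries 2 genes were called lower and 1 higher, and the same counts were had with the germ cell median as no change. Dropping Brg1 cKO replicate 1 or Brg1 WT replicate 2 gave 3 calls, and dropping Brg1 cKO replicate 3 gave 2.

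Among the genes linked to PLK2 and PLK3 more rose than fell. Of 17 tested stress and synaptic partners 4 rose, 1 fell and 12 were not called, where 8.79% of all genes tested rose, and the median log2 fold change was 0.17. The immediate early genes Fos, Jun and Ier2 rose. Fos had 1234, 1091, 962 and 1020 CPM in Brg1 cKO replicates 1 to 4, against 484, 695, 789 and 795 CPM in Brg1 WT replicates 1 to 4. No libraries overlapped (1.56-fold higher in Brg1 cKO, edgeR adjusted p = 0.020). Ier2 was 1.53-fold higher and Jun 1.37-fold higher, while Egr1, the most abundant gene of the list, had 1773 ± 226 CPM in Brg1 cKO and 1166 ± 416 CPM in Brg1 WT and was not called. Trp53, whose protein induces Plk2, had 79.2 ± 6.71 CPM in Brg1 cKO and 66.1 ± 3.27 CPM in Brg1 WT (SD, n = 4 each; edgeR adjusted p = 0.032). The p53 target Cdkn1a had a log2 fold change of 0.17 ± 0.19 (SE) and was not called. Chek2, a checkpoint kinase gene, was the 1 gene that fell, at -0.44 ± 0.13 (SE, edgeR adjusted p = 0.045). Cdkn1a and Chek2 were named after their values were seen. Of the peritubular and stromal markers 8 of 8 had a positive log2 fold change, with a median of 0.55 and 1 called, Pdgfra, which was named after its values were seen. They summed to 1708 to 2785 CPM in Brg1 cKO and 1175 to 2052 CPM in Brg1 WT. Of the Leydig cell markers 6 of 6 and of the macrophage markers 4 of 5 had a positive log2 fold change, with none called. The macrophage markers summed to 29.3 to 45.5 CPM in Brg1 cKO and 35.7 to 38.5 CPM in Brg1 WT. Mrc1 alone made most of that sum, at means of 24.2 CPM in Brg1 cKO and 24.8 CPM in Brg1 WT. Its log2 fold change was -0.035, and Mrc1 was named after its values were seen. No marker of these lists was at 0 in any library, and the part of these cells in the rise was not tested. Sertoli cell markers were higher in the same libraries, as given above, and with their median as no change no gene of the list was higher, 7 were lower and Trp53 turned to -0.16. Leaving out Brg1 WT replicate 2 left no call by edgeR, with 7 genes at an unadjusted p under 0.05, and leaving out both Brg1 WT replicates 1 and 2 also left none, with 4 such genes. When Brg1 WT replicate 1, 3 or 4 was dropped the calls were 2, 3 and 3 in that order, and when Brg1 cKO replicate 1, 2 or 3 was dropped they were 1, 8 and 3.

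**Figure D4:**
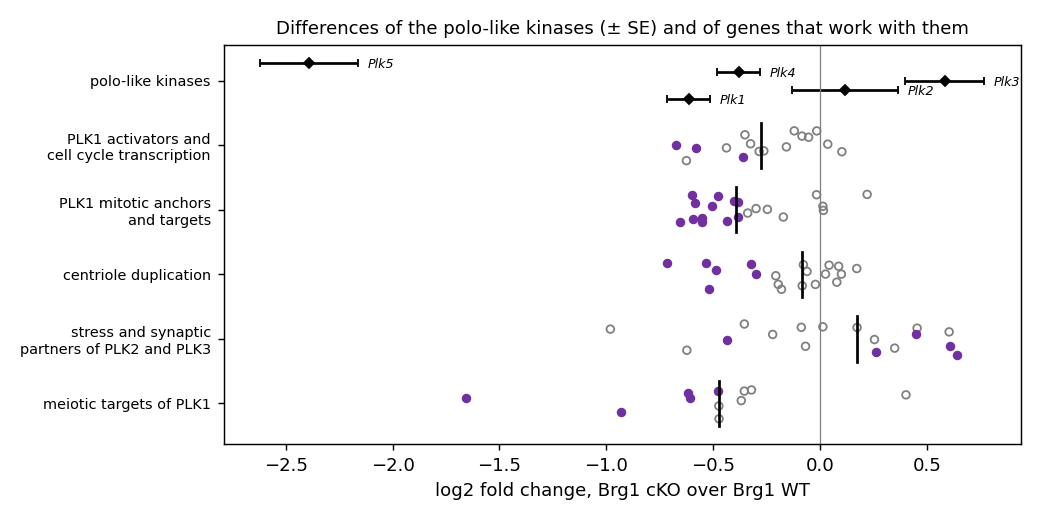
Log2 fold change, Brg1 cKO over Brg1 WT, of the 5 polo-like kinases (diamonds, ± SE) and of tested genes that work with them, by list. Filled circles have an adjusted p under 0.05, open circles do not, and vertical lines are list medians. Mitotic and meiotic lists lie mostly left of 0, and Plk5 lies left of every listed gene.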

How the data were processed

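The authors deposited unscaled estimated counts, with 1 row for each gene symbol. The mRNA kit was a stranded one, per the labels, and kallisto 0.42.5, edgeR and the build mm9 are what the submitters' processing notes list. The sources used here do not give the annotation, how transcripts were summed to symbols, or whether strand was used.

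Estimated counts, of which 39.4% were not whole within 0.001, were rounded, filtered with filterByExpr by genotype, normalized with TMM and tested with edgeR 4.0.16 (quasi-likelihood, robust, with genotype as its single term, in R 4.3.3). Benjamini-Hochberg adjustment ran over 16059 genes. To get a standard error, the size of each log2 fold change was divided by the root of its F. CPM uses TMM-scaled totals, and log2 CPM a prior count of 2. Lists were described by counts and medians. The fit was tested on simulated data with far fewer changed genes than were called here, so nothing is read from that test. Library totals of 20456743 to 32596038 limit the precision of low genes. No 2 libraries of a genotype agreed within sampling noise (lowest chi-square per degree of freedom 20.2).

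The members, lists, alternatives and naming rule were chosen with earlier results of these data known. Named were the members, Smarca4, from each list up to 4 called genes with the smallest adjusted p and the most abundant gene, and the 3 genes most like each member (average log2 CPM of at least 1, no Gm or Rik symbols). Promoters came from RefSeq, all 5 members matching, and gene positions and lengths from GENCODE M21 (GRCm38), matched by symbol and not used with mm9 coordinates. P-values measure the spread between libraries described as biological replicates. Alternatives were RLE and upper-quartile factors, DESeq2 1.42.0, limma-voom (limma 3.58.1), other filters, single libraries left out, Brg1 WT replicates 1 and 2 left out, the replicate number as a block, and the germ cell or Sertoli cell median as no change.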

Additional observations from a re-analysis of the deposited data

Results flagged for a closer look

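A library stood far from the other 3 of its genotype in 4 of the 60 groups examined (30 genes in 2 genotypes), where chance gives about 1 in 20 groups. None of the 5 polo-like kinases was among them. Ier2 stood at 256 CPM in Brg1 cKO replicate 1, above the 207 to 212 CPM of the other Brg1 cKO libraries. Ppp1r12a had 229 CPM in the same library and 187 to 193 CPM in the others. For Incenp, Brg1 cKO replicate 2 had 78.0 CPM while the other Brg1 cKO libraries had 62.6 to 65.2 CPM, all below Brg1 WT. In Brg1 WT, Pcnt had 112 CPM in replicate 4, below the 119.7 to 121 CPM of the others.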

How the results depend on the processing

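All 5 members kept the sign of their difference under RLE and upper-quartile factors, DESeq2, limma-voom and both other filters, and the call of Plk3, absent from the reported fit, appeared with RLE factors, DESeq2 and the 1 CPM filter. With a single library left out the values ran from -0.71 to -0.56 for Plk1, -0.10 to 0.29 for Plk2, 0.48 to 0.71 for Plk3, -0.44 to -0.31 for Plk4 and -2.59 to -2.28 for Plk5. With the germ cell median as no change they were -0.26 for Plk1, 0.47 for Plk2, 0.94 for Plk3, -0.025 for Plk4 and -2.04 for Plk5. With the Sertoli cell median they were -1.03 for Plk1, -0.30 for Plk2, 0.16 for Plk3, -0.80 for Plk4 and -2.81 for Plk5, and Trp53 turned to -0.16.

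Over all genes 3312 were called, 1412 higher and 1900 lower. The count was 4455 by DESeq2 (2228 higher, 2227 lower), 1608 to 3477 with a single library left out, and 438 once Brg1 WT replicates 1 and 2 were both left out. The germ cell median as no change gave 9033 (8469 higher, 564 lower), and the Sertoli cell median gave 9214 (55 higher, 9159 lower). Counts called in the lists ran, with a single library left out, from 3 to 7 for PLK1 activators, 8 to 14 for mitotic targets, 2 to 6 for centriole genes, 0 to 8 for PLK2 and PLK3 partners and 2 to 6 for meiotic targets. In that order of lists, they were 0, 2, 2, 0 and 3 without Brg1 WT replicates 1 and 2. With the germ cell median they were 4, 5, 12, 11 and 3, of which 4, 4, 10, 11 and 1 were higher. With the Sertoli cell median they were 16, 19, 19, 7 and 10, all of them lower. DESeq2 and limma-voom each called 5 PLK1 activators. The causes were not tested.

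Same-numbered libraries had correlations of -0.37 to 0.15 in their deviations, which cannot show whether the libraries were paired by number. The same-numbered Brg1 WT library was the closest one for Brg1 cKO replicates 2 and 4, but not for replicates 1 and 3. The replicate block gave 1914 calls and lost that of Plk4. It called 3 centriole genes and 0 PLK2 and PLK3 partners, where the reported fit called 6 and 5. Of the partner list, 10 genes had an unadjusted p under 0.05 in the block fit. Plk5, at 21 to 47 estimated counts in Brg1 cKO, is the member that depth limits most.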
